A study of Mus musculus with 21 samples.

Results

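The genes described here act where sperm meets egg: *Izumo1*, *Spaca6*, *Tmem95*, *Dcst1*, *Dcst2*, *Spaca4* and *Plcz1*, 7 genes chosen by name among the 24456 genes of the count tables. Counts were found for 6 of the 7. *Dcst2* has no row in these tables under its present or its older symbol, so it was not analysed here. The RNA came from fractionated mouse spermatogenic cells, wild type (*H2al2* WT) or lacking the histone variant H2A.L.2 (*H2al2* KO), with no other allele, agent or age given in the labels. Pachytene spermatocytes, round spermatids and condensing spermatids each had 3 WT and 3 KO libraries, and spermatozoa had 2 WT libraries and 1 KO library, 21 in all, every library being labelled testis. The labels number the replicates but do not say which came from separate animals, so the p-values measure the spread between these libraries.

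Spermatozoa fuse with the egg only after the acrosome, a vesicle over the sperm head, has released its contents and exposed proteins of its inner face. IZUMO1 on the sperm then binds JUNO on the egg, and several other sperm membrane proteins are each needed for the membranes to join. After fusion the sperm phospholipase PLCZ1 enters the egg cytoplasm and starts the calcium oscillations that wake the egg. These proteins are made in the testis, mostly after meiosis, while round spermatids turn into elongated and condensed cells whose transcription shuts down as histones are replaced.

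The genes lie on 5 chromosomes, given here in the mouse build GRCm38 (mm10) with RefSeq spans. *Izumo1*, the adhesion protein of the immunoglobulin superfamily, lies on chr7:45621811-45627242, plus strand. *Spaca4*, a GPI-anchored protein of the acrosomal membrane that helps sperm pass the egg coat, lies on chr7:45725107-45725816 on the minus strand, inside the span of the plus-strand gene *Fam83e* (chr7:45721171-45729755). *Spaca6*, another membrane protein required for fusion, lies on chr17:17826085-17843010, plus strand, and its span holds the microRNA genes *Mir99b*, *Mirlet7e* and *Mir125a* and part of the minus-strand gene *Has1*. *Tmem95*, a small membrane protein required for fusion, lies on chr11:69876054-69878171, minus strand. *Dcst1* (chr3:89350219-89365253, minus strand) and *Dcst2* (chr3:89350417-89377643, plus strand) encode paired DC-STAMP domain proteins needed for fusion, and their spans overlap on opposite strands. *Plcz1* lies on chr6:139987396-140041488, minus strand, and its start faces that of *Capza3*, a spermatid actin-capping subunit on the plus strand, across 68 bases.

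Stretches at the start sites of *Izumo1*, of *Tmem95* and of the pair *Dcst1* and *Dcst2* are shown because they differ in what they hold. *Dcst2* was not measured, and a link between these letters and the levels was not tested. The sequences are those of RefSeq, GRCm38.p6, printed 5′ to 3′ on the strand of the gene named. The stretch of 250 bases before the *Izumo1* start site (chr7:45621561-45621810, plus strand) holds the full cyclic AMP response element TGACGTCA, a motif read by the spermatid activator CREM, in capitals, its first base 96 bases before the start. The 92 bases between *Tmem95* and its neighbour *Kctd11* (chr11:69878172-69878263, minus strand) open with the shorter element TGACG, in capitals, 208 bases before the *Tmem95* start site used by the table. The 65 bases between the *Dcst1* start site and the *Dcst2* start site used here (chr3:89365254-89365318, shown on the plus strand, that of *Dcst2*) hold neither. The *Dcst2* start used lies at chr3:89365319, inside its RefSeq span, which begins at 89350417. Its GENCODE span begins at 89361975, so where *Dcst2* starts depends on the annotation.
Izumo1: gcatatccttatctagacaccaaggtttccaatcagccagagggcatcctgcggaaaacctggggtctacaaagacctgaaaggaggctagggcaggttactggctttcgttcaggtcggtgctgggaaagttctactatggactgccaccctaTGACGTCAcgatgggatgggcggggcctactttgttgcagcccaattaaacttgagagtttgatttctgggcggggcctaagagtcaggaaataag
Tmem95: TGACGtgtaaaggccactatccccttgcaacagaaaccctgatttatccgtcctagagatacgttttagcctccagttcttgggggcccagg
Dcst1 and Dcst2: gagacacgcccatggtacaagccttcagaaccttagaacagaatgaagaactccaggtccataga

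Motifs were searched on both strands in the 250 bases before the start site of the 6 listed genes that the promoter table holds, which leaves out *Plcz1* and includes *Dcst2*. TGACGTCA was found before 1 of these 6, against 1.55% of all 32851 promoters in the table. TGACG, which also counts each full element on both strands, was found before 2 of the 6, *Izumo1* and *Tmem95*, against 17.8% of all promoters. GTTGCC, a core of the X box read by RFX factors, was found before *Spaca6* alone (10.4% of all promoters). CCAAT was found before *Izumo1*, with 2 copies, and *Spaca4* (33.8% of all promoters). Neither TATAAA (12.4% of all promoters) nor CCGTTA, the core of the MYB motif (2.18%), was found before any of the 6. Such matches are descriptions of letters in a window, and say nothing here of binding.

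Depth was 2772995 to 8201682 read pairs on genes per library, lowest in the spermatozoa. Levels are given as CPM, counts scaled to a common library total, after TMM scaling, a correction for library composition. The gene of H2A.L.2, listed as *H2afb1*, averaged 30.7 ± 14.1 CPM (SD, n = 3) at the pachytene stage of WT cells against 4.30 ± 0.989 of KO cells. Its round spermatid averages were 206 ± 5.30 CPM for WT and 23.8 ± 2.68 for KO, its condensing spermatid averages 200 ± 45.9 and 30.7 ± 4.64, and its ranges did not overlap between genotypes at any of these 3 stages. In spermatozoa the gene stood at 14.6 CPM in the single KO library and at 45.1 to 57.7 CPM in WT. Markers of other cells varied with the fractions. The summed level of 10 Sertoli cell markers was 61.9 to 82.6 CPM in WT round spermatids and 577 to 750 CPM in WT condensing spermatids, and none of the 10 was at 0 in a whole group. The sum of 7 macrophage markers was 727 to 774 CPM in the WT spermatozoa and 3587 CPM in the KO spermatozoa library, against at most 35.2 CPM in any library of the other stages. WT round spermatid replicates 2 and 3 were the most alike pair, and treating them as 1 library changed no call of a measured gene. Their mean chi-square, a measure of difference in counts that is near 1 under counting error alone, was 1.06 for genes of moderate counts. The lowest value of any other pair within a group was 1.90. For genes of the highest counts the pair stood at 8.76, against 65.9 or more in the other pairs. Whether the pair are separate samples was not tested, and the spread of this group may be understated. Libraries labelled condensing and round differed little in 9 condensing spermatid markers, whose sums were 28334 to 41442 CPM and 26936 to 29767 CPM in WT.

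The 6 measured genes rose from pachytene spermatocytes to round spermatids and, with the exception of *Plcz1*, were lower again in condensing spermatids. The egg activator *Plcz1* had the highest CPM of the 6 in every spermatid and spermatozoa library and followed a different course after the round stage.

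*Izumo1* stood at 24.8, 29.8 and 14.1 CPM in the WT pachytene libraries, at 80.9, 93.5 and 90.8 in round spermatids, at 50.9, 57.6 and 46.4 in condensing spermatids and at 8.45 and 6.59 in spermatozoa. Every round spermatid library lay above every condensing one, and every condensing one above every pachytene one. *Spaca6* followed the same order at a lower level, with 8.18, 8.13 and 6.16 CPM at the WT pachytene stage, 24.8, 29.6 and 29.3 among round spermatids and 15.4, 16.3 and 14.8 among condensing ones. Its WT spermatozoa libraries held 5.25 and 5.20 CPM, close below the pachytene range.

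*Dcst1* stood at 32.5, 45.2 and 19.8 CPM in WT pachytene spermatocytes, 109, 112 and 106 in round spermatids, 63.7, 60.9 and 51.5 in condensing spermatids and 21.0 and 22.9 in spermatozoa. Its spermatozoa values fell inside the pachytene range, so these groups could not be ordered. *Spaca4* stood at 29.1, 41.7 and 16.7 CPM in WT pachytene spermatocytes, 97.9, 99.0 and 106 in round spermatids, 53.1, 41.0 and 43.1 in condensing spermatids and 12.2 and 6.59 in spermatozoa. Here the condensing and pachytene ranges overlapped, while the round libraries lay clear above both.

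*Tmem95* was the rarest of the 6, with 6 to 14 read pairs in a WT pachytene library, 28 to 30 in a round one and 8 to 9 in a condensing one. These correspond to 1.68, 1.43 and 0.880 CPM, then 3.76, 4.17 and 4.06, then 1.38, 1.31 and 1.41 CPM. Round spermatids lay above both other stages, whose ranges overlapped. The WT spermatozoa libraries held 1 and 3 read pairs, and 3 counts equal 0.869 and 1.08 CPM at their depths before scaling.

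*Plcz1* stood at 64.9, 39.9 and 47.7 CPM at the WT pachytene stage, rose to 333, 376 and 370 among round spermatids and stood at 417, 436 and 433 among condensing ones. Its spermatozoa libraries held 107 and 93.0 CPM, below both spermatid groups and above every pachytene library. The gene lay above 96.4% of the genes detected in WT round spermatids on average, and above 98.0% of those in WT condensing spermatids. In spermatozoa it still lay above 91.2% of detected genes, where *Izumo1* lay above 39.0% and *Tmem95* above 4.59%.

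**Figure D1:**
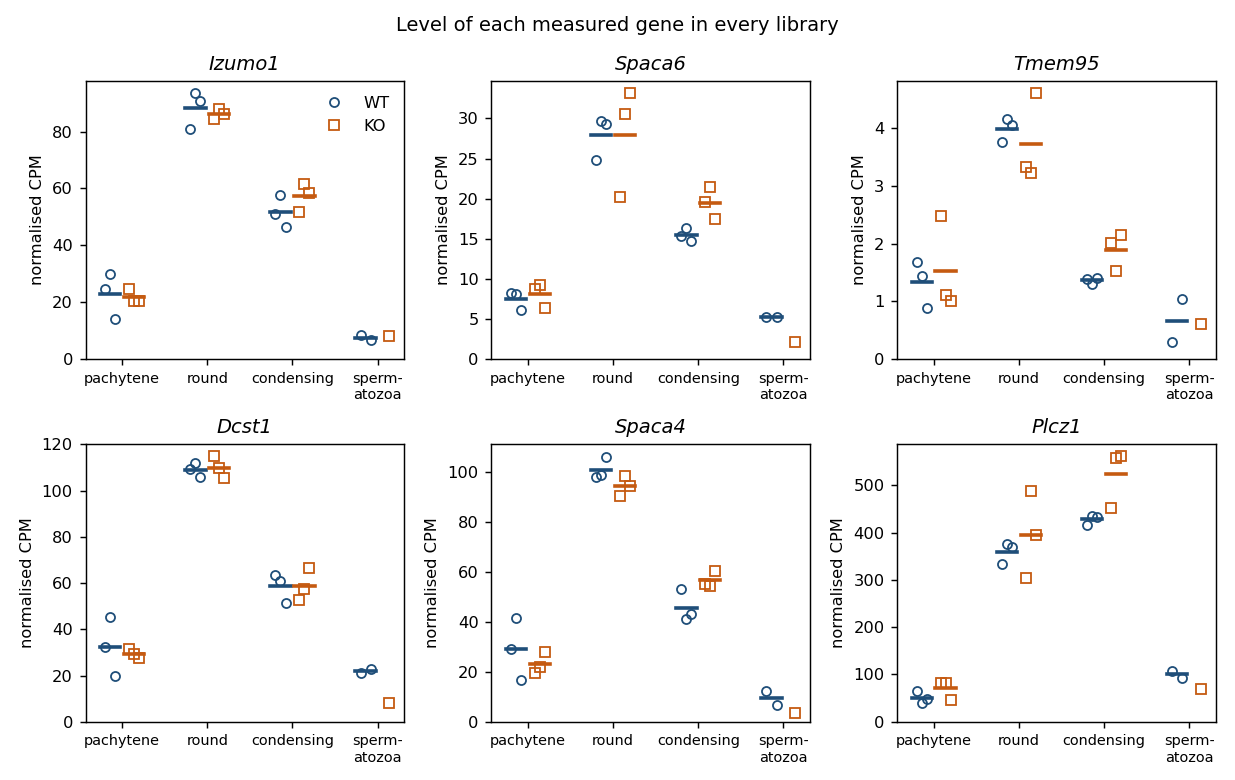
Level of each measured gene in CPM after TMM scaling (linear axes from 0, a separate scale per gene) in all 21 libraries, by stage; circles are WT and squares *H2al2* KO libraries, and bars are group means where a group has more than 1 library. *Plcz1* stands at 417 to 436 CPM in WT condensing spermatids and at 333 to 376 in round ones, a step that was not called. The other 5 genes peak in round spermatids.

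Levels of different genes were compared per kilobase of exon, from the merged exons of the GENCODE annotation of the same build. In WT round spermatids *Plcz1* averaged 159 ± 10.2 CPM per kb (SD, n = 3) and *Spaca4*, with a merged exon length of 707 bases, 143 ± 6.42, so the shorter gene nearly matched the phospholipase. *Izumo1* averaged 59.2 ± 4.44, *Dcst1* 46.6 ± 1.25, *Spaca6* 26.0 ± 2.48 and *Tmem95* 7.53 ± 0.400 CPM per kb. This order held in each of the 6 round and the 6 condensing spermatid libraries of both genotypes. In the WT pachytene libraries it did not: *Spaca4* ranked above *Plcz1* in each of the 3. In KO pachytene libraries *Plcz1* ranked above *Spaca4* in replicates 1 and 2 (36.4 and 36.2 against 27.5 and 30.8 CPM per kb). In KO replicate 3 it ranked below (20.6 against 39.6). In WT condensing spermatids *Plcz1* reached 189 ± 4.57 CPM per kb and *Spaca4* 64.6 ± 9.14.

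The step from pachytene spermatocytes to round spermatids asks which transcripts build up as meiosis ends. All 6 genes rose in WT cells, where 34.4% of the 14011 genes tested were called higher at an adjusted p under 0.05 (edgeR quasi-likelihood test, Benjamini-Hochberg adjustment over all genes). *Plcz1* rose the most, 7.24-fold (95% interval 5.63 to 9.30), a log2 fold change of 2.86 ± 0.17 (SE) with an adjusted p of 2.6e-08. Of the genes tested, 98.7% had a lower log2 fold change. *Izumo1* rose 3.93-fold, *Spaca6* 3.79-fold, *Spaca4* 3.53-fold and *Dcst1* 3.42-fold. *Tmem95* rose by 1.58 ± 0.28 on the log2 scale (95% interval of the fold 1.97 to 4.55), with the highest adjusted p of the 6, 0.00021. The median log2 fold change was 1.87 over the 6 genes and -0.02 over all genes tested.

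In KO cells all 6 rose as well, where 36.5% of the 13877 genes tested were called higher. The KO rises ran from 2.41-fold for *Tmem95* to 5.55-fold for *Plcz1* (95% interval 4.20 to 7.34), and *Izumo1* rose 3.91-fold. Of the pachytene libraries, WT replicate 3 was the lowest for *Izumo1*, *Spaca6*, *Tmem95*, *Dcst1* and *Spaca4*. The sum of the 9 condensing spermatid markers was also lowest there, 2285 CPM against 5620 and 5296 CPM in replicates 1 and 2, and the sum of 9 round spermatid markers was 1144 CPM against 1560 and 1730. From WT pachytene to round spermatids the Leydig markers were called lower in 8 of 8 (median log2 fold change -3.23), against 35.9% of all genes tested. The macrophage markers were called higher in 6 of 6 tested (2.78), against 34.4% of all genes tested. How far RNA of Leydig cells, macrophages or later germ cells sets the pachytene values was not tested. In bulk fractions of this kind, fewer cells of a type and less RNA per cell cannot be told apart.

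From round to condensing spermatids the 5 genes of adhesion and fusion fell in WT cells while *Plcz1* was not called, and 21.8% of the genes tested were called lower. *Tmem95* fell 2.86-fold (95% interval 1.85 to 4.42), a log2 fold change of -1.51 ± 0.29 (SE) and an adjusted p of 0.0010, and only 0.428% of the genes tested fell further. *Spaca4* fell 2.17-fold (adjusted p = 0.0015), *Dcst1* 1.83-fold (adjusted p = 0.0040), *Spaca6* 1.77-fold (adjusted p = 0.00041) and *Izumo1* 1.68-fold (adjusted p = 0.0065). *Plcz1* had a log2 fold change of 0.28 ± 0.15 (adjusted p = 0.15), with a 95% interval of -0.06 to 0.61. Its 3 condensing libraries lay above its 3 round ones, but 61.1% of the genes tested had a lower log2 fold change. The share of all genes whose libraries separate in this way was not counted. The median log2 fold change was -0.85 over the 6 genes and 0.04 over all genes tested.

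In KO cells the same step took the same 5 genes down, where 24.5% of the genes tested were called lower. The falls ran from 1.42-fold for *Spaca6* to 1.95-fold for *Tmem95*, and without KO round spermatid replicate 3 only *Izumo1*, *Dcst1* and *Spaca4*, 3 of the 6 genes, were called. *Spaca6* also lost its call without KO condensing replicate 3 (log2 fold change -0.42) or KO round replicate 2 (-0.43), and *Tmem95* without KO condensing replicate 2 (-0.82). *Plcz1* had a log2 fold change of 0.42 ± 0.18 (95% interval 0.05 to 0.79) and an adjusted p of 0.054. *Tmem95* also lost its call by the DESeq2 Wald test (-0.99, adjusted p = 0.064). With library size alone, no filter or the replicate block *Plcz1* was called higher (adjusted p = 0.037, 0.00062 and 0.031 by edgeR). It was also called higher without KO condensing replicate 1 (0.50), KO round replicate 2 (0.60) or KO pachytene replicate 2 or 3 (0.41 each). Sertoli and Leydig cell markers moved with this step. Of the Sertoli markers 9 of 9 tested, and of the Leydig markers 8 of 8, were called higher in WT condensing than in WT round spermatids, against 28.3% of all genes tested. Their median log2 fold changes were 3.48 and 3.79. Peritubular myoid markers were called higher in 3 of 5 tested in WT (median 1.80). Round spermatid markers were called lower in 7 of 9 in WT (median -0.69) and in 7 of 9 in KO (-0.56), and higher in 0. The shares of all genes called lower were 21.8% in WT and 24.5% in KO. The part of these cells in the falls was not tested.

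**Figure D2:**
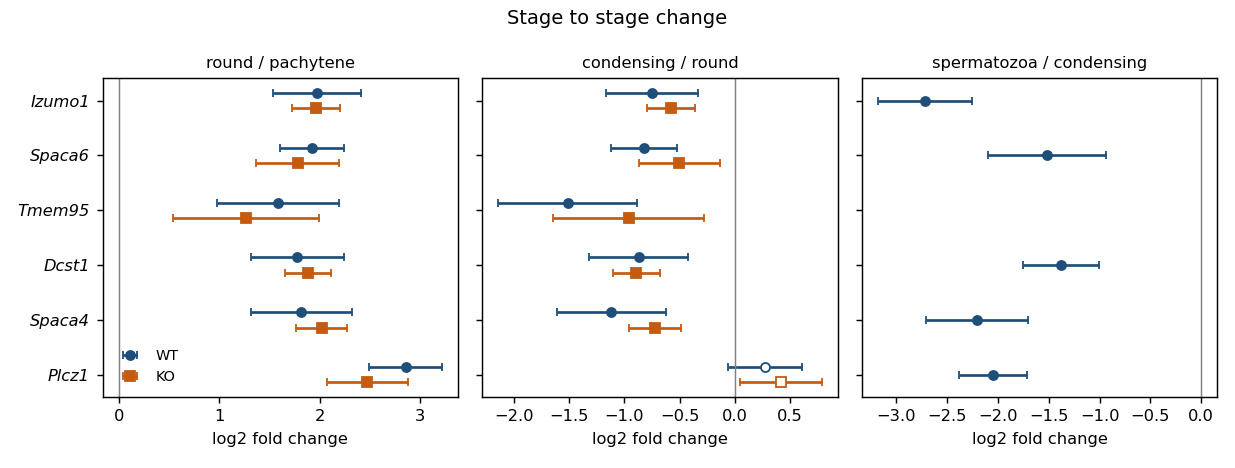
Log2 fold change of each measured gene between neighbouring stages, with 95% intervals from the edgeR quasi-likelihood fit; circles are WT, squares *H2al2* KO, filled where the adjusted p is under 0.05, and the x scale differs between panels. *Tmem95* has no point in spermatozoa, where it did not pass the filter on low counts, and the KO spermatozoa, with 1 library, were not tested.

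The ratio of *Plcz1* reads to the reads of the other 5 genes within a library does not depend on the scaling between libraries. It was looked at after the levels were seen and is given without a test. In WT the ratio was 0.316 to 0.827 in pachytene spermatocytes, 1.05 to 1.11 in round spermatids, 2.26 to 2.76 in condensing spermatids and 2.20 and 2.27 in spermatozoa. Each stage up to the condensing spermatids thus held a range of its own. In KO libraries the ratio was 0.561 to 1.01, then 0.969 to 1.48, then 2.49 to 2.85, and it was 3.04 in the spermatozoa library, so that the KO pachytene and round ranges overlapped. The ratio of *Dcst1* to *Izumo1* reads stayed between 1.06 and 1.52 in the 9 WT libraries of these stages, and was 2.48 and 3.47 in WT spermatozoa. That of *Spaca4* to *Izumo1* was 1.17 to 1.40 in WT pachytene, 1.06 to 1.21 in round and 0.712 to 1.04 in condensing cells, lower in each condensing library than in any round one.

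**Figure D3:**
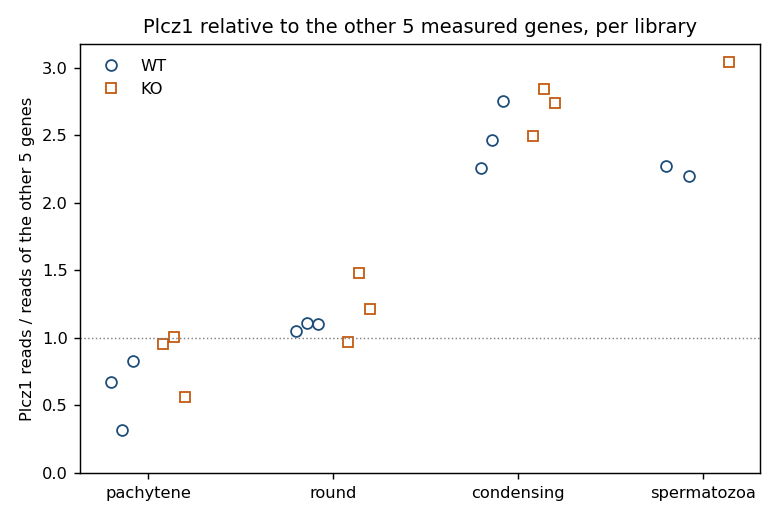
Reads of *Plcz1* divided by the summed reads of *Izumo1*, *Spaca6*, *Tmem95*, *Dcst1* and *Spaca4* in each of the 21 libraries, by stage; circles are WT and squares *H2al2* KO, and the dotted line marks equal numbers of reads. The 3 WT round spermatid libraries sit at 1.05 to 1.11 and the 3 WT condensing ones at 2.26 to 2.76.

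WT spermatozoa held less of every gene that could be tested than WT condensing spermatids, 5 of 5, where 35.8% of the 15116 genes tested were called lower. *Izumo1* fell 6.58-fold (95% interval 4.78 to 9.06), *Spaca4* 4.61-fold, *Plcz1* 4.14-fold (3.29 to 5.21), *Spaca6* 2.86-fold and *Dcst1* 2.59-fold (2.00 to 3.36). The highest adjusted p of the 5 was 5.1e-05, for *Spaca6*. *Tmem95* did not pass the filter on low counts. Its 4 read pairs in the WT spermatozoa against 26 in the WT condensing spermatids gave a ratio of 0.471 per read on genes, with an exact 95% interval of 0.119 to 1.36 that covers counting error only. Beside these falls the macrophage markers, 7 of 7, were called higher in spermatozoa, with a median log2 fold change of 3.78, where 36.6% of all genes tested were called higher. Epididymis markers were called higher in 3 of 5 tested, lower in 1 and not called in 1 (median 5.75). *Lcn5* and *Lcn8* of that list were at 0 in the WT spermatozoa. Sertoli markers were lower in 9 of 9 (-3.69) and Leydig markers in 7 of 8 (-4.08). Germ cell markers fell as well, pachytene markers in 10 of 10 (-2.03) and round spermatid markers in 7 of 9 (-1.90). Condensing spermatid markers were called lower in 6 of 9 and higher in 1 (-1.49). The part of these cells in the falls was not tested.

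The single KO spermatozoa library had no replicate and was compared by value alone. It held 27 reads of *Izumo1*, 7 of *Spaca6*, 2 of *Tmem95*, 26 of *Dcst1*, 12 of *Spaca4* and 225 of *Plcz1*. Per read on genes, its ratio to the summed WT spermatozoa was 1.06 for *Izumo1* (exact 95% interval 0.637 to 1.74), 0.668 for *Plcz1* (0.571 to 0.778), 0.400 for *Spaca6*, 0.371 for *Spaca4* and 0.356 for *Dcst1* (0.224 to 0.544). These intervals cover counting error, not the difference between libraries of a group. The same library held 10711 CPM of the condensing spermatid markers, against 30540 and 34898 CPM in the WT spermatozoa, and 1139 CPM of the round spermatid markers, against 2755 and 2457 CPM.

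The comparison of KO with WT asks whether loss of H2A.L.2 changed these transcripts. None of the genes was called at any stage: 0 of 5 tested in pachytene spermatocytes (0% of all 12236 genes called), 0 of 6 in round spermatids (0.0156% of 12804) and 0 of 6 in condensing spermatids (0.00728% of 13734). At an unadjusted p under 0.05 in the same edgeR test the counts were 0, 0 and 3, against 6.66%, 5.88% and 6.33% of all genes tested, and DESeq2 also called 0 at each stage. The 3 became 1 without KO condensing replicate 2 or 3 or WT condensing replicate 1 or 2, and 1 with library size alone. This count was 2 without KO condensing replicate 1 or by the DESeq2 Wald test, and 0 in the fit on all 18 libraries. The pachytene count became 1 without KO pachytene replicate 3 or WT pachytene replicate 1 or 3. It was also 1 in the fit on all 18 libraries, by the DESeq2 Wald test and with no filter. The round spermatid count became 1 without KO round replicate 1. The counts over all genes rested on single libraries: 243 genes were called without WT pachytene replicate 3, and 264 in round spermatids without WT round replicate 1, with 0 measured genes among the called in either fit. *Tmem95* did not pass the filter on low counts in pachytene spermatocytes. For *H2afb1* the same test gave log2 fold changes of -2.75 at the pachytene stage (adjusted p = 0.48), -3.10 at the round stage (adjusted p = 3.4e-08) and -2.71 at the condensing stage (adjusted p = 9.5e-07). Without WT pachytene replicate 3, its pachytene log2 fold change was -3.06 (adjusted p = 5.2e-05), and DESeq2 called it there with all libraries (adjusted p = 2.0e-11).

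In round spermatids *Izumo1* stood at 84.3, 87.9 and 86.3 CPM in KO libraries against 80.9 to 93.5 in WT, a log2 fold change of -0.03 with a 95% interval of -0.22 to 0.17. *Dcst1* stood at 115, 110 and 105 CPM against 106 to 112, with an interval of -0.15 to 0.20. *Spaca4* stood at 90.6, 98.6 and 94.3 CPM against 97.9 to 106, with an interval of -0.27 to 0.10. The KO values of these 3 genes overlapped those of WT. *Plcz1* was more variable among the KO libraries, at 304, 488 and 394 CPM, with an interval of -0.17 to 0.46. *Spaca6*, at 20.2, 30.6 and 33.1 CPM in KO, had an interval of -0.36 to 0.39, and *Tmem95* of -0.60 to 0.42.

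In KO condensing spermatids 4 of the 6 genes lay above WT without overlap, though none passed the adjusted threshold. Of all genes tested there, 6.6% lay above WT without overlap. *Plcz1* stood at 453, 558 and 562 CPM in KO against 417, 436 and 433 in WT, a log2 fold change of 0.28 ± 0.12 (SE, adjusted p = 0.76, unadjusted p = 0.036 in the edgeR test). *Spaca6* stood at 19.6, 21.4 and 17.5 CPM in KO against 15.4, 16.3 and 14.8 in WT, a log2 fold change of 0.32 ± 0.14 (adjusted p = 0.74). *Spaca4* stood at 55.4, 54.3 and 60.5 CPM against 53.1, 41.0 and 43.1, a log2 fold change of 0.30 ± 0.12 (adjusted p = 0.68). *Tmem95*, on 11 to 14 reads per KO library and 8 to 9 per WT library, had a log2 fold change of 0.45 ± 0.34 (adjusted p = 0.90). *Izumo1* (51.8, 61.7 and 58.4 CPM in KO) and *Dcst1* (52.8, 57.2 and 66.3) overlapped WT, with 95% intervals of -0.10 to 0.38 and -0.26 to 0.24. The summed level of 8 Leydig markers was 91.9 to 137 CPM in these KO libraries and 153 to 239 in WT, and that of the 7 macrophage markers 17.8 to 25.8 against 26.6 to 35.2. The part of these cells in the differences was not tested.

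In pachytene spermatocytes *Plcz1* stood at 82.6, 82.2 and 46.8 CPM in KO against 64.9, 39.9 and 47.7 in WT, a log2 fold change of 0.54 ± 0.26 (adjusted p = 0.66) with a 95% interval of -0.04 to 1.13. *Izumo1* stood at 24.7, 20.3 and 20.5 CPM in KO, inside the WT range, with an interval of -0.48 to 0.50. *Spaca6* (8.70, 9.20 and 6.31 CPM in KO), *Dcst1* (31.5, 29.4 and 27.5) and *Spaca4* (19.4, 21.7 and 28.0) also overlapped WT.

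**Figure D4:**
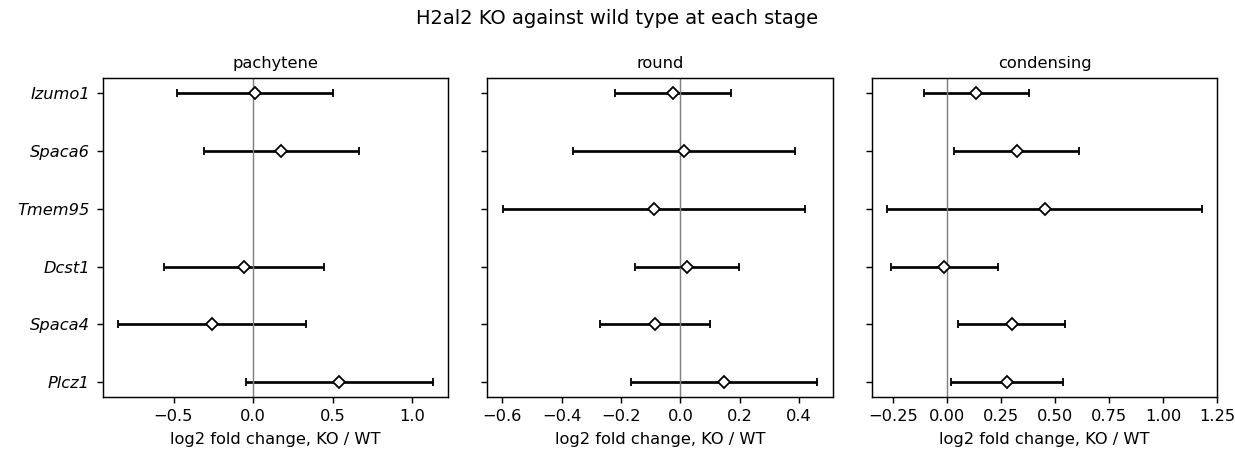
Log2 fold change of *H2al2* KO against WT for each measured gene at 3 stages, with 95% intervals (edgeR quasi-likelihood fit; open symbols, adjusted p of 0.05 or more; the x scale differs between panels). The points for *Spaca6*, *Spaca4* and *Plcz1* in condensing spermatids lie at 0.32, 0.30 and 0.28 with intervals that leave out 0 before adjustment, and *Tmem95* was not tested in pachytene spermatocytes.

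The change of the KO effect between stages was fitted as an interaction over the 18 libraries of 3 stages. It was called for 0 of 6 genes from pachytene to round and 0 of 6 from round to condensing, with 0% and 0% of the 14479 genes tested called. For the first step 0 of the 6, and for the second 0 of the 6, had an unadjusted p under 0.05 in the edgeR test, against 7.25% and 2.81% of all genes, and DESeq2 called 0 at either step. Without WT pachytene replicate 3 these counts were 2 and 1, and without KO pachytene replicate 3 the first was 1. The lowest adjusted p of a measured gene was that of *Plcz1* from pachytene to round, 0.74, with an interaction of -0.39 ± 0.28 on the log2 scale (95% interval -0.98 to 0.20).

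A list of 33 other genes of sperm-egg and sperm-coat interaction, which includes acrosomal, ADAM and CRISP proteins, was read beside these genes. From WT pachytene to round spermatids 25 of the 33 rose, 3 fell and 5 were not called, with a median log2 fold change of 1.90. Of all genes tested at this step, 34.4% were called higher and 35.9% lower. *Izumo3*, a relative of *Izumo1*, rose the furthest (2.74 ± 0.15, from 23.8 to 156 CPM), followed by the lysozyme-like *Spaca5* (2.52) and the hyaluronidase *Hyal5* (2.44). The 3 that fell were *Tex101* (-2.27 ± 0.16), a GPI-anchored partner in ADAM3 maturation, *Ly6k* (-0.72) and *Adam2* (-0.61), which were already at 158, 92.3 and 683 CPM in pachytene spermatocytes. From WT round to condensing spermatids 25 fell and 2 rose, with a median of -0.75, where 21.8% of all genes tested were called lower and 28.3% higher. *Zan*, *Spaca3* and *Tmem81* fell the furthest, each by 1.16 on the log2 scale, and *Tex101* (0.77) and *Crisp2* (0.71, from 2449 to 3945 CPM) rose. The other 6 of the 33, like *Plcz1*, were not called at this step.

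Genes called higher and then lower over these steps numbered 5 of the 6 described here, 19 of the 33 listed genes (57.6%) and 1834 of all 14011 genes tested (13.1%). In WT spermatozoa 32 of the 33 listed genes were lower than in condensing spermatids, where 35.8% of all genes tested were called lower. The largest falls were those of *Calr3* (-3.69), *Eqtn* (-3.47) and *Spaca7* (-3.20). In KO cells 29 of the 33 rose and 3 fell in round spermatids, where 36.5% of all genes tested were called higher and 38.4% lower. In KO condensing spermatids 26 fell and 2 rose, where 24.5% of all genes tested were called lower and 29.7% higher. Between KO and WT 0 of the 33 were called at each of the 3 stages.

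**Figure D5:**
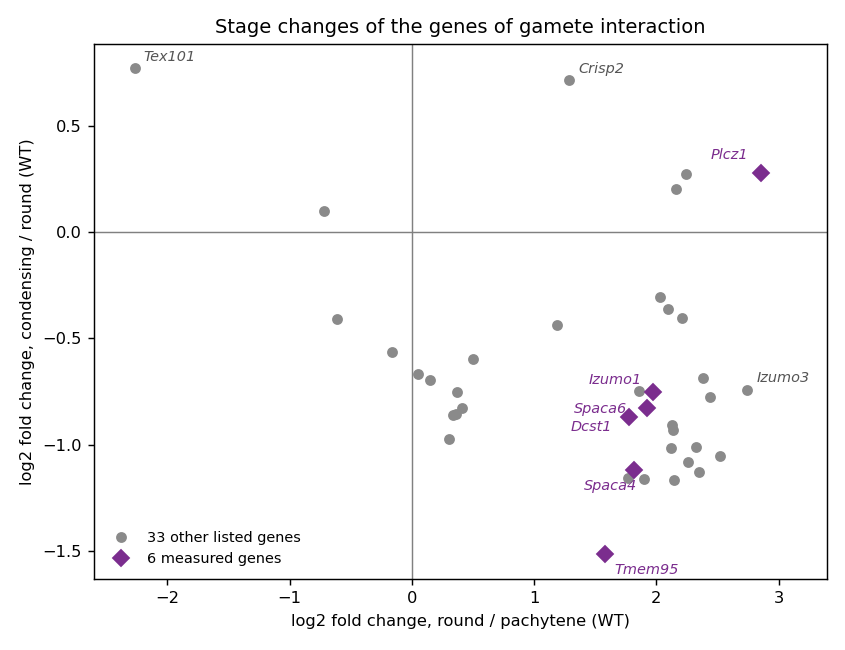
WT log2 fold change from pachytene spermatocytes to round spermatids (x) and from round to condensing spermatids (y) for the 6 measured genes (diamonds) and 33 other listed genes of gamete interaction (circles). The 5 adhesion and fusion genes lie at the lower right, between -0.75 and -1.51 on the y axis, and *Plcz1* lies above 0 at the far right.

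The nearest genes on the chromosome were followed over the same steps. *Capza3*, whose start faces that of *Plcz1*, rose 2.36 on the log2 scale from WT pachytene to round spermatids, from 58.5 ± 20.6 to 294 ± 14.1 CPM, and was not called from round to condensing spermatids (-0.28, adjusted p = 0.27). In spermatozoa *Capza3* fell by 3.16 on the log2 scale, against 2.05 for *Plcz1*. *Fam83e*, which lies across *Spaca4* on the other strand, rose by 2.71 from pachytene to round spermatids, and at 52.0 CPM in WT spermatozoa was not called against condensing spermatids (log2 fold change 0.40, adjusted p = 0.22), a step at which *Spaca4* fell. *Rasip1*, next to *Izumo1*, rose by 1.85 but stood at 3.22 CPM in WT round spermatids, and *Fut1*, on its other side, at 0.0895 CPM. *Adam15*, beyond *Dcst1*, rose by 1.52 and was called higher in spermatozoa (0.87). *Tnk1*, below *Tmem95*, rose by 2.20 and *Pik3c2g*, below *Plcz1*, by 2.20, to 1.19 and 1.58 CPM. *Rpl18*, below *Spaca4* (-0.14), and *Zbtb7b*, above *Dcst2* (0.43), were not called at this step, and both were called higher in spermatozoa (1.66 and 3.27). *Sult2b1*, above *Spaca4*, stood at 0.0931 CPM in WT round spermatids and 17.2 CPM in WT spermatozoa. *Vmn2r90* and *Fpr1*, beside *Spaca6*, *Has1*, *Kctd11* and the 3 microRNA genes of the *Spaca6* span stood at or under 0.0464 CPM in WT round spermatids. The counting assigned reads by strand, so reads on the strand of *Fam83e* or *Has1* were not counted for the genes they overlap. How fully the libraries kept the strands apart was not measured.

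The genes whose pattern was most like each member were found by Pearson's r of log2 CPM over the 18 libraries of 3 stages, among 14033 genes. These libraries share their depth and composition between genes, and the values are given as a description. For *Izumo1* they were *Best1* (0.994), *BC048562* (0.994) and *Rbms1* (0.992), and for *Dcst1* *Tsga8* (0.995), *1700061G19Rik* (0.993) and *Gatad2a* (0.992). For *Spaca4* they were *1700015E13Rik* (0.989), *Ttc39a* (0.989) and *Tsga8* (0.988), and for *Spaca6* *Hsfy2* (0.989), *Acrv1* (0.986) and *Rbm7* (0.986). *Plcz1* was nearest to *1700003P14Rik* (0.993), *Chl1* (0.992) and *Luzp1* (0.991), which like it were higher in condensing than in round WT spermatids on average. *Tmem95* had weaker matches, *4932416K20Rik* (0.939), *Prdm4* (0.938) and *Bean1* (0.931). Among the members the highest r was that of *Izumo1* and *Dcst1* (0.979) and the lowest that of *Tmem95* and *Plcz1* (0.501).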

How the data were processed

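RNA was sequenced from 21 fractions with a stranded total RNA kit after removal of ribosomal RNA. The authors aligned the reads to mm10 (STAR 2.7.11b) and counted them per gene with HTSeq on the reverse strand, without multi-mapped reads, and the deposited values are raw counts. The 5 closing rows that name no gene, 34.6% to 57.7% of the counts of each file, entered neither the library totals nor the fits. Groups were taken from the labels. The members, lists and tests were chosen with earlier results of these data known. Counts were scaled by TMM, filtered by expression and tested with edgeR 4.0.16 (quasi-likelihood, R 4.3.3) per comparison, with Benjamini-Hochberg adjustment over all genes tested at 0.05. DESeq2 1.42.0, other scalings and filters, a replicate block and leaving out libraries were alternatives. The code was tested on simulated counts with 200 genes changed. Named were all members, *H2afb1*, list genes with up to 3 largest called changes per direction and stage step, neighbours in RefSeq, and the 3 most similar patterns per member (mean CPM of at least 1, log2 of CPM + 0.5). The exact intervals of ratios of reads and the floor of 3 counts cover counting error only. The edgeR intervals also take in the spread between libraries. WT round spermatid replicates 2 and 3 were the closest pair and were kept as separate libraries, so each SD and test of this group counts both.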

Additional observations from a re-analysis of the deposited data

How the results depend on the processing

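Of the 1074 values of single genes under an alternative 50 changed sign, none of them past the threshold before or after. The counts of called genes stayed within 1.5 times except for KO condensing against round spermatids, 3 to 6 when single libraries were left out, 4 by the DESeq2 Wald test and 6 with library size alone, no filter or the replicate block. The replicate numbers did not pair the libraries (correlations of deviations -0.162 to 0.209 between genotypes and -0.181 to 0.270 between stages). With the replicate block *Plcz1* was called there (log2 fold change 0.44, adjusted p = 0.031), no other call of a measured gene changed, and 61 and 26 of all genes were called for KO against WT in round and condensing spermatids. *Spaca6* in KO against WT round spermatids was -0.0043 with the replicate block. With library size alone *H2afb1* from WT round to condensing spermatids was 0.039, and *Izumo1* was -0.025 for KO against WT in pachytene spermatocytes and 0.017 for the KO effect from pachytene to round. With no filter these *Izumo1* values were -0.011 and 0.042. *Izumo1* in pachytene spermatocytes was -0.0010 in the fit on all 18 libraries, and summing WT round spermatid libraries 2 and 3 gave 0.0058 in round spermatids and 0.013 for the KO effect. Leaving out single libraries gave ranges across 0. For KO against WT in pachytene spermatocytes these were -0.28 to 0.19 (*Dcst1*), -0.20 to 0.18 (*Izumo1*) and -0.50 to 0.025 (*Spaca4*). In round spermatids they were -0.0012 to 0.054 (*Dcst1*), -0.084 to 0.025 (*Izumo1*), -0.033 to 0.31 (*Plcz1*), -0.13 to 0.21 (*Spaca6*) and -0.27 to 0.0026 (*Tmem95*), and in condensing spermatids -0.10 to 0.061 (*Dcst1*). For the KO effect from pachytene to round they were -0.16 to 0.40 (*Dcst1*), -0.53 to 0.051 (*H2afb1*), -0.20 to 0.27 (*Izumo1*), -0.10 to 0.51 (*Spaca4*), -0.26 to 0.086 (*Spaca6*) and -0.52 to 0.24 (*Tmem95*). From round to condensing they were -0.11 to 0.059 (*Dcst1*) and -0.0033 to 0.34 (*Plcz1*), and *H2afb1* in WT ranged from -0.22 to 0.076. Library size alone moved the median log2 fold change of all genes to -0.20 from WT pachytene to round and 0.11 from round to condensing. The cause of these changes was not tested. Depth limits *Tmem95* most, at 1 to 32 read pairs per library.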
